A study of Mus musculus with 18 samples.

Results

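Scx/Tnmd cells, which carry the transcripts by which tendon and ligament fibroblasts are commonly recognized, were followed through single-cell libraries of CD45-Ter119- bone marrow (BM) stroma. A stromal cell was taken when it held at least 3 unique molecular identifiers (UMIs, each standing for 1 captured mRNA molecule) summed over Scx and Tnmd, with at least 1 from Tnmd. By this rule 3902 of 35219 stromal cells were chosen, out of 56201 cells in the whole series. They were 766 of 8226 stromal cells at embryonic day 16.5 (E16.5), 572 of 6642 at E18.5, 1582 of 14084 at birth (P0) and 982 of 6267 in the adult. The mice were of strain C57B6/J with no further treatment or allele in the labels, cells were pooled over animals, and each stage had 1 stromal library. Stroma was obtained from the skeleton without the head in fetal and newborn mice, and from tibias, femurs, pelvis and spine in adults. Collagenase digestion is described for adult BM, and the same steps without red cell lysis for fetal BM. Stage, library, bones and preparation therefore cannot be told apart, and no difference between stages was tested.

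Tendons and ligaments join muscle to bone and bone to bone, and their fibroblasts deposit parallel fibrils of type I collagen. Scx is a basic helix-loop-helix transcription factor of tendon progenitors, and Tnmd is a transmembrane glycoprotein made downstream of it as the cells mature. Scx is also expressed where tendon meets cartilage, in cells that share the cartilage factor Sox9. Other tendon regulators include the homeobox factor Mkx and signals of the TGF-beta and FGF families, and the fibrils are shaped by small leucine-rich proteoglycans, thrombospondins and elastic microfibrils.

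Promoter sequences are shown for 3 genes on which the comparisons turn: the rule gene Tnmd, and Kera and Thbs4, whose summed levels were higher in the chosen cells of every library. Each is the 250 bases before the RefSeq start on GRCm38.p6, written 5′ to 3′ on the gene's own strand, with any match to the helix-loop-helix motif CANNTG in capitals. The Tnmd window is chrX:133850758-133851007 on the plus strand, the Kera window is chr10:97606955-97607204 on the plus strand and the Thbs4 window is chr13:92794819-92795068 on the minus strand. The palindromic motif was absent from the first 2 windows and was found once in that of Thbs4, 115 bases before the start, while 66.2% of 32851 RefSeq promoters of this length hold it. Scx, Mkx and Mfap4 are named here without a promoter.
Tnmd: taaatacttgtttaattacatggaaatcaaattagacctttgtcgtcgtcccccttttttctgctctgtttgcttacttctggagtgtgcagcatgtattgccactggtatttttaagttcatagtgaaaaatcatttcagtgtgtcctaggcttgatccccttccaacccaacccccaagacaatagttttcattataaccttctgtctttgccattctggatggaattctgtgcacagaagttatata
Kera: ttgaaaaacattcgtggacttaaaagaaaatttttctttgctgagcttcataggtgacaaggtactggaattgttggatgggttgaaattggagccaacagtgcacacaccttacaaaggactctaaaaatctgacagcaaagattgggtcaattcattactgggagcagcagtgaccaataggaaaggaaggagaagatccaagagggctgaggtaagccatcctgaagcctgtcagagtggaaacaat
Thbs4: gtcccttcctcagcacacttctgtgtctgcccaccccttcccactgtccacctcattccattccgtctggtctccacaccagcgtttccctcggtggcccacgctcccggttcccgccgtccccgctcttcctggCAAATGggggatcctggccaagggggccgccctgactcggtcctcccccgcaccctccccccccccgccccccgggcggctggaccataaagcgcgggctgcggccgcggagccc

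The chosen cells were 9.31% of stromal cells at E16.5 (95% Clopper-Pearson interval 8.69 to 9.96%), 8.61% at E18.5 (7.95 to 9.31%), 11.2% at P0 (10.7 to 11.8%) and 15.7% in the adult (14.8 to 16.6%). These intervals, and the Poisson intervals given later, cover counting error only. When cells were thinned to 2000 UMIs, leaving out 58, 377, 2149 and 93 shallower cells, the shares were 4.55, 3.69, 5.39 and 8.65% in the same order. Adult stroma had the highest share both as counted and after thinning. The median Scx/Tnmd cell held 11075, 14679, 14519 and 12159.5 UMIs, and the median other stromal cell 13123, 15746.5, 13475.5 and 11721.

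The 2 rule genes are described without a test because they chose the cells. Tnmd stood at 1273, 1152, 1338 and 1719 CPM (the UMIs of a gene per 1000000 UMIs summed over the cells) in Scx/Tnmd cells of the E16.5, E18.5, P0 and adult libraries, with a median of 10, 10, 11 and 16 UMIs per cell. Other stromal cells held 4.39, 5.55, 12.5 and 4.32 CPM of Tnmd, and Scx/Tnmd cells carried from 94.2% (P0) to 98.6% (adult) of all Tnmd UMIs of their library. Scx stood at 387, 218, 190 and 377 CPM in Scx/Tnmd cells, and they carried 60.4, 58.9, 59.4 and 79.4% of all Scx UMIs. The rule itself sets these shares, since it needs a Tnmd UMI and no Scx UMI. Of the chosen cells, 20.1% (E16.5) to 30.1% (E18.5) had no Scx UMI at all. At the threshold itself, 75, 65, 196 and 80 cells had exactly 3 UMIs of both genes, and 119, 124, 477 and 100 cells with Tnmd lay just outside it at 2.

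Tnmd UMIs were also found in cells that should lack the gene. At least 1 Tnmd UMI was present in 4.23% of 71 endothelial cells at E16.5, 2.13% of 94 at E18.5, 12.1% of 223 at P0 and 3.87% of 594 in the adult, at median depths of 10893, 9992, 10797 and 5331.5 UMIs. Schwann cells held it in 2.42% of 165 cells at E16.5, 0 of 72 at E18.5 (up to 4.99%) and 8.92% of 157 at P0. The corresponding shares of stromal cells outside the rule were 5.27, 8.12, 14.7 and 5.22%, within the counting interval of the endothelial share in each library but E18.5. Against Schwann cells they lay above the interval at E18.5 (up to 4.99%) and at P0 (4.96 to 14.5%) and within it at E16.5 (0.664 to 6.09%). However, the endothelial and Schwann shares include cells that met the whole rule, which the shares outside it leave out. Such cells were 13 of 23 endothelial cells with Tnmd in the adult and 3 of 4 Schwann cells with Tnmd at E16.5. The shares compared are thus unlike, and whether they differ was not tested. From 0 to 13 endothelial or Schwann cells per library met the whole rule, and none of the cells in the hematopoietic libraries did.

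**Figure D1:**
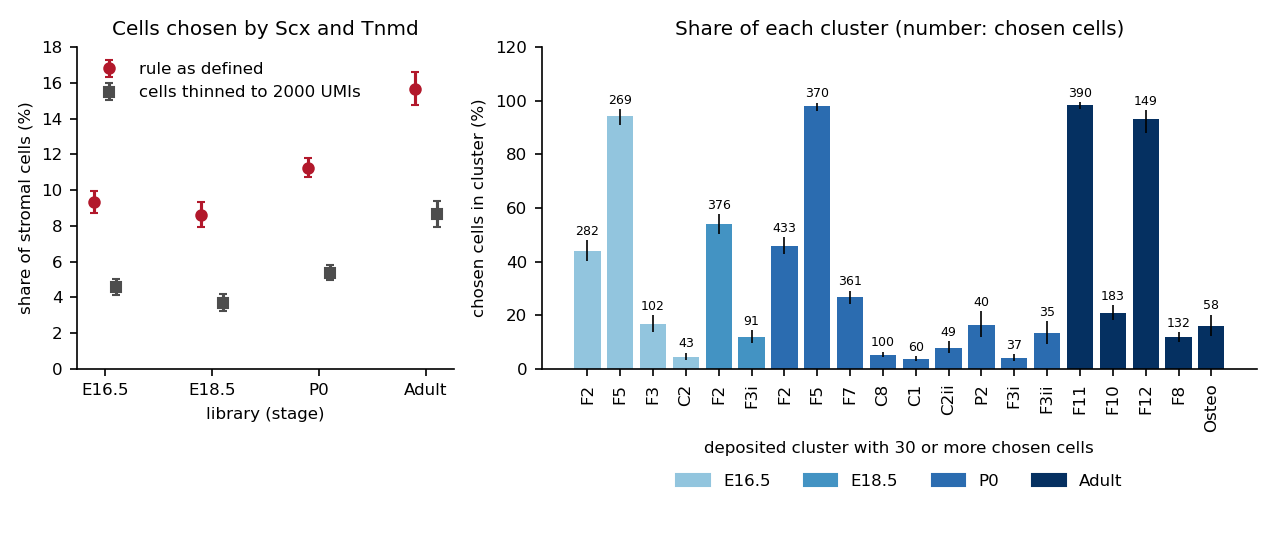
Left, share of stromal cells (%) chosen by the Scx and Tnmd rule in each library, as counted (red circles) and after thinning to 2000 UMIs (grey squares), with 95% intervals for counting error. Right, share (%) of each deposited cluster with 30 or more chosen cells, with the number of chosen cells above each bar, from 3.70% of cluster C1 at P0 to 98.5% of adult cluster F11. The adult share was highest in both series, and 5 clusters consisted of Scx/Tnmd cells to more than 50%.

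The label was checked against the clusters and against markers of other cell types. Clusters that the authors coded F (fibroblast) held 90.2, 84.4, 78.1 and 89.0% of Scx/Tnmd cells, while they held 34.7, 24.6, 27.5 and 56.6% of all stromal cells. The rest lay mainly in chondrocyte clusters (C), in the P2 cluster at P0 and in the adult Osteo cluster, so the cells are named here by the rule and not by a cell type. Of the markers of other types, summed chondrocyte markers stood at 5484, 19231, 23094 and 6493 CPM in Scx/Tnmd cells, against 27444, 61776, 51529 and 45321 CPM in the other stromal cells. Muscle markers summed to 180, 65.1, 127 and 23.2 CPM against 518, 142, 303 and 151 CPM. Endothelial markers summed to between 13.8 (E18.5) and 132 CPM (adult) against between 47.4 (E16.5) and 447 CPM (adult). All 3 sums were lower in Scx/Tnmd cells of every library, whereas pericyte and smooth muscle markers (285, 764, 744 and 888 CPM against 359, 429, 484 and 781 CPM) were lower at E16.5 and higher in the other libraries. Erythroid markers were higher than in other stromal cells at E16.5 (9.52 against 3.99 CPM) and E18.5 (5.28 against 1.57 CPM) and lower at P0 (1.75 against 5.65 CPM). Markers of blood cells summed to 9.52 CPM or less through P0 and reached 8.27 CPM (hematopoietic) and 105 CPM (erythroid) in the adult, below the other adult stromal cells at 14.3 and 185 CPM. The part of such cells in the results below was not tested beyond the alternatives given.

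To ask what else these cells expressed, their counts were summed per library and compared with those of all other stromal cells of the same library by edgeR, with the library as a block. Of 15623 genes tested, 1577 (10.1%) were higher and 1989 (12.7%) lower in Scx/Tnmd cells at an adjusted p below 0.05, 22.8% in either direction, and the median log2 fold change over all genes was -0.04. These counts rested on 4 libraries and moved to 659 higher and 726 lower without E16.5, 416 and 376 without E18.5, and 726 and 1025 without P0. Because the other stromal cells include cartilage, vessel, muscle and glial cells, the same contrast was also run with both classes restricted to clusters that hold at least 10% Scx/Tnmd cells, an alternative chosen after seeing the data. It set 653, 482, 1239 and 930 Scx/Tnmd cells beside 878, 1102, 1944 and 2161 others, summed over these clusters, whose mix still differed between both classes. Of 13349 genes, 381 (2.85%) were higher and 542 (4.06%) lower there. Of these calls, 232 higher and 163 lower genes kept their direction from the wider contrast and 39 turned. Values given as within clusters come from this contrast. Fold changes below are log2 values from edgeR, and the SD is that of the 4 per-library log2 ratios computed with a pseudocount of 1 CPM.

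Among the genes with the largest fold changes were secreted matrix proteins and intracellular proteins. Thbs4, a pentameric thrombospondin of tendon and muscle matrix, stood at 288, 446, 583 and 6047 CPM in the E16.5, E18.5, P0 and adult libraries, against 18.3, 30.4, 48.7 and 372 CPM in the other stromal cells. Every library had it more than 10-fold higher (log2 fold change 3.79, SD 0.20, n = 4 libraries, edgeR adjusted p = 0.000281), and it remained higher within the same clusters (log2 fold change 2.54). Kera, a keratan sulfate proteoglycan that spaces collagen fibrils, stood at 112, 114, 127 and 671 CPM against 3.51, 2.35, 5.65 and 5.99 CPM (log2 fold change 5.38, SD 1.01, n = 4 libraries, edgeR adjusted p = 0.00239; within clusters 3.73). The 2 groups of libraries did not overlap for Kera and overlapped for Thbs4 through the adult library alone, which was highest for both. Ptx4, a pentraxin family member, reached 12.6, 11.1, 23.6 and 303 CPM in Scx/Tnmd cells and at most 0.792 CPM in the other stromal cells of any library (log2 fold change 7.15, SD 1.87, n = 4 libraries, edgeR adjusted p = 0.00181). The LIM-domain protein gene Zfp185 differed in the opposite order of stages, from 81.5 CPM at E16.5 to 38.2 CPM in the adult, against 1.79 to 4.39 CPM outside (log2 fold change 3.87, SD 0.44, n = 4 libraries, edgeR adjusted p = 0.00119). Insc, which encodes an adaptor of the spindle orientation machinery, was likewise higher in all 4 libraries (26.7, 13.0, 11.7 and 47.8 CPM against 2.40, 1.61, 1.58 and 4.10 CPM; log2 fold change 3.17, SD 0.46, n = 4 libraries, edgeR adjusted p = 0.00119). All 3 also passed the test within the same clusters, with log2 fold changes of 6.03, 3.16 and 2.76.

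**Figure D2:**
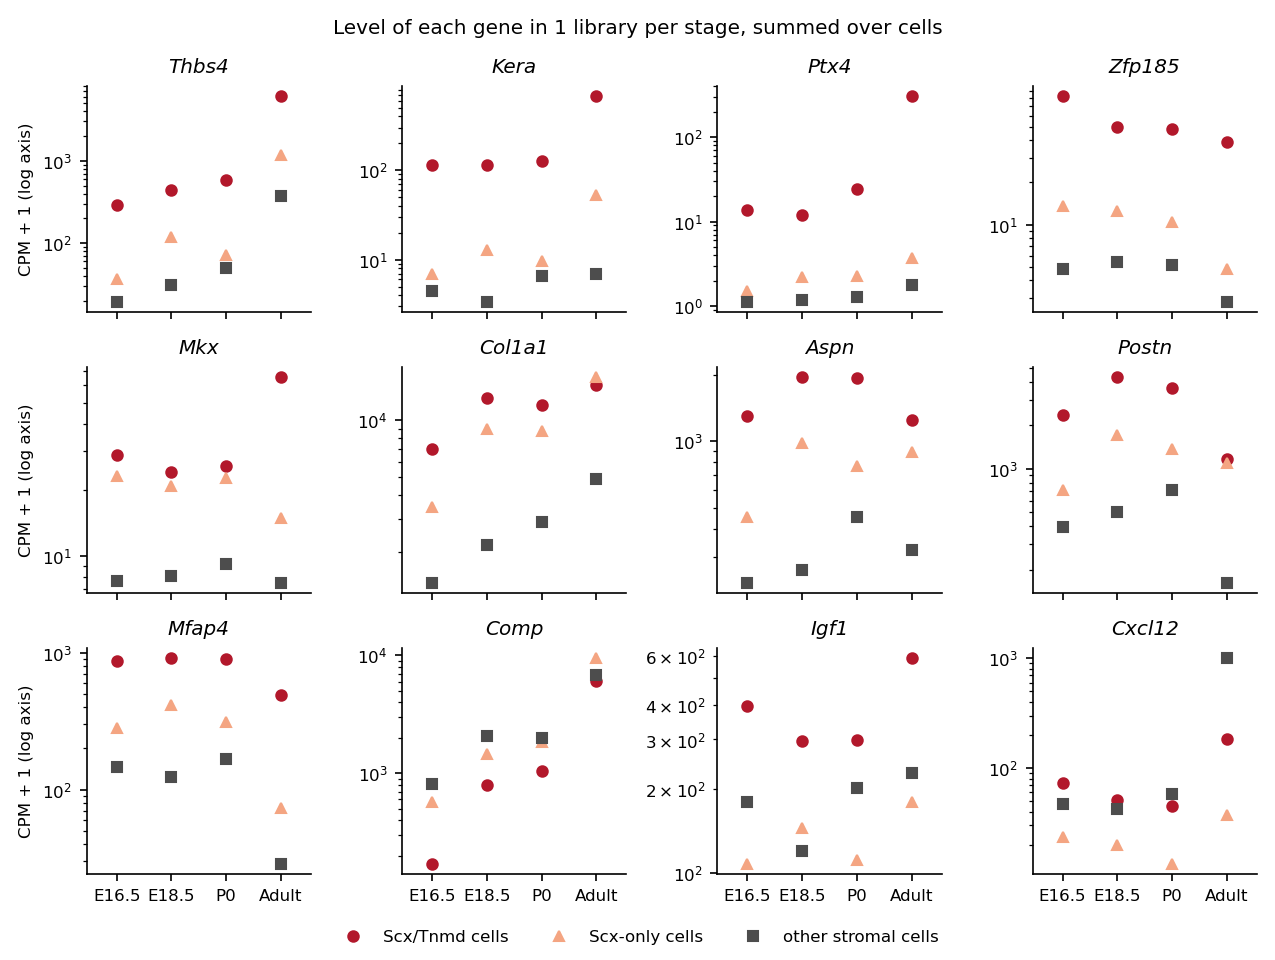
Levels of 12 genes in CPM + 1 (log axis) in the E16.5, E18.5, P0 and adult libraries, for Scx/Tnmd cells (red circles), Scx-only cells (orange triangles) and other stromal cells (grey squares), 1 library per point. Summed levels of Thbs4, Kera, Ptx4 and Zfp185 set Scx/Tnmd cells apart from both other classes in every library. Mkx lies near the Scx-only cells until P0 and above them in the adult (64.5 against 13.9 CPM), and Comp and adult Cxcl12 lie below the other stromal cells.

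Among the 10 listed transcription factors of tendon, 5 were higher, among them Mkx, Eya1, Eya2 and Etv4, and 2 were lower (Egr1 and Sox9), with a median log2 fold change of 1.27. Mkx, a homeobox factor needed for tendon fibril growth, stood at 27.7, 23.1, 24.6 and 64.5 CPM in the E16.5, E18.5, P0 and adult libraries, against 6.69, 7.08, 8.18 and 6.50 CPM in the other stromal cells (log2 fold change 2.08, SD 0.76, n = 4 libraries, edgeR adjusted p = 0.00946; within clusters 2.06). The groups did not overlap, and the gap was widest in the adult. Eya1, a transcriptional coactivator known from muscle and tendon, had a log2 fold change of 1.21 (edgeR adjusted p = 0.00272) and also passed within clusters (0.98). Sox9, the cartilage factor, was lower at 129, 240.0, 264 and 119 CPM against 419, 653, 512 and 543 CPM (log2 fold change -1.65, SD 0.51, n = 4 libraries, edgeR adjusted p = 0.00549), whereas within clusters its log2 fold change was -0.20 and did not pass. The call of Etv4, an ETS factor downstream of FGF, was lost without E16.5, E18.5 or P0 (edgeR adjusted p = 0.0746 to 0.158), and that of Egr1 without E16.5 or E18.5 (0.128 to 0.135), so that 1 factor was lower without either of these 2 libraries.

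Of 7 fibrillar collagen genes, 5 were higher in Scx/Tnmd cells (Col1a1, Col1a2, Col3a1, Col5a1 and Col5a2) and Col11a1, which is abundant in cartilage, was lower (list median 1.26). Col1a1, the main chain of tendon collagen, stood at 7033, 13021, 12020.2 and 15249 CPM in the E16.5, E18.5, P0 and adult libraries, against 1371, 2166, 2872 and 4851 CPM in the other stromal cells (log2 fold change 2.09, SD 0.40, n = 4 libraries, edgeR adjusted p = 0.00186), and Col1a2 had a log2 fold change of 1.75 (SD 0.26, edgeR adjusted p = 0.00119). Both stayed higher within clusters (0.77 and 0.76), where Col3a1 (-0.05) and Col5a1 (0.12) did not pass and Col11a1 turned to higher (0.56), and Col5a3 was lower. Of 7 fibril-associated collagen genes 6 were higher, among them Col12a1 (log2 fold change 1.07, edgeR adjusted p = 0.0034) and the type VI chain Col6a3 (0.71, 0.014). This count fell to 2 without E18.5 and to 3 without P0, and 2 of the 7 passed within clusters (Col12a1 and Col8a1).

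Small leucine-rich proteoglycans, which bind collagen and limit fibril width, were split: 4 of 10 were higher (Kera, Aspn, Ogn and Bgn) and Omd, which is known from bone, was lower, with a list median of 0.33. Aspn stood at 1302, 1947, 1928 and 1243 CPM against 227, 259.9, 454 and 321 CPM (log2 fold change 2.29, SD 0.43, n = 4 libraries, edgeR adjusted p = 0.00175), and the groups did not overlap. Within clusters it stayed higher (0.62), as did Bgn, Kera and Ogn, and none of the list was lower. Fmod, another fibril regulator of tendon, stood at 406, 1229.6, 1436 and 5244 CPM against 474, 1226, 1321 and 1624 CPM. It was thus at or near the level of the other stromal cells until P0 and above it in the adult alone (log2 fold change 0.30, SD 0.87, n = 4 libraries, edgeR adjusted p = 0.552). Without the adult library its log2 fold change was -0.11, and within clusters it passed as higher (edgeR adjusted p = 0.0231). Dcn, the most widespread of these proteoglycans, differed less (713, 1133, 1158 and 19686 CPM against 521, 839, 1081 and 9843 CPM; log2 fold change 0.42, SD 0.37, n = 4 libraries, edgeR adjusted p = 0.0901). Without the adult library Dcn passed as higher (0.26), and within clusters it turned to -0.47 without passing. No member was lower without E18.5, and 3 were without the adult.

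Among 16 secreted glycoproteins of tendon matrix, 7 were higher (Thbs4, Thbs2, Postn, Tnc, Cilp, Cilp2 and Fibin) and 2 lower (Comp and Thbs1), with a list median of 0.90. Thbs2 stood at 363, 454, 440.4 and 333 CPM against 86.8, 90.8, 123 and 81.6 CPM (log2 fold change 1.99, SD 0.20, n = 4 libraries, edgeR adjusted p = 0.00119) and Postn, a matricellular protein that promotes collagen cross-linking, at 2363, 4306, 3625 and 1162 CPM against 392, 502, 707 and 161 CPM (log2 fold change 2.65, SD 0.32, n = 4 libraries, edgeR adjusted p = 0.00119). Neither gene overlapped between the groups, and both passed within clusters (0.79 and 1.17). Comp, a thrombospondin shared by tendon and cartilage, was lower at 169.7, 798, 1052 and 6061 CPM against 817, 2069, 1977 and 6801 CPM (log2 fold change -1.25, SD 0.88, n = 4 libraries, edgeR adjusted p = 0.0469), but the adult values nearly met. This call was lost without E16.5, E18.5 or P0 (edgeR adjusted p = 0.106 to 0.179), and within clusters Comp was at -0.07. The call of Cilp, a cartilage and tendon matrix protein, was lost without the same 3 libraries (0.0720 to 0.157). Without the adult library 11 of the 16 were higher, and without any of the 3 others none was lower.

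Elastic fibre genes were higher for 8 of 11 (Fbn1, Fbn2, Mfap2, Mfap4, Fbln1, Fbln2, Fbln5 and Ltbp4), with a median of 1.09. Mfap4, a microfibril-associated protein, stood at 881, 923, 899 and 491 CPM in the E16.5, E18.5, P0 and adult libraries, against 146, 124, 167 and 27.6 CPM in the other stromal cells (log2 fold change 2.93, SD 0.76, n = 4 libraries, edgeR adjusted p = 0.00433). Mfap2 had a log2 fold change of 1.44 (SD 0.16, edgeR adjusted p = 0.00119). Both were higher in 4 of 4 libraries, and Mfap4 did not overlap between the groups. The count was 4 without E16.5, 2 without E18.5 and 5 without P0. Within clusters only Mfap2 (0.65) and Emilin1 were higher, while Fbn1 (-0.77), Fbln2 (-0.53) and Mfap5 were lower.

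**Figure D3:**
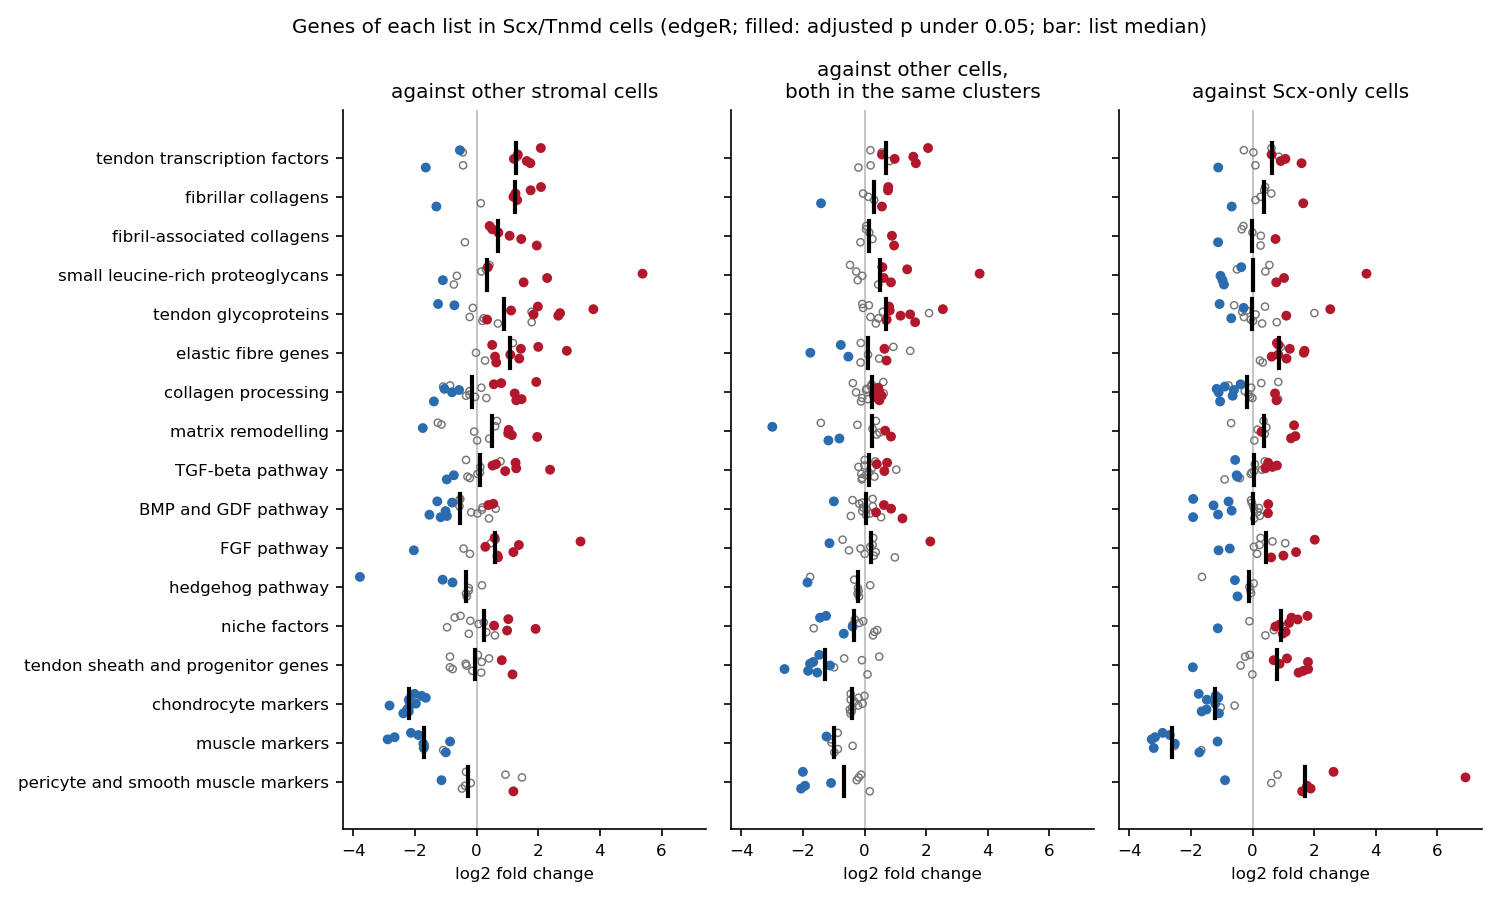
Log2 fold change from edgeR of the genes of 17 lists (1 point per gene, bar at the list median) in Scx/Tnmd cells against other stromal cells (left), other stromal cells with both classes in the same clusters (middle) and Scx-only cells (right), with filled points at adjusted p below 0.05. Chondrocyte markers lie below 0 on the left (median -2.20) and closer to it in the middle (-0.40), where none is filled, and elastic fibre genes lie above 0 on the left (1.09) and on both sides of it in the middle (0.11).

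For signalling, the ligand Tgfb3 of the TGF-beta pathway, which maintains tendon progenitors, stood at 80.6, 99.5, 94.8 and 134 CPM in the E16.5, E18.5, P0 and adult libraries, against 32.3, 33.4, 43.6 and 52.5 CPM in the other stromal cells (log2 fold change 1.26, SD 0.18, n = 4 libraries, edgeR adjusted p = 0.00119; within clusters 0.73). It was higher in every library without overlap. In its list, 6 of 15 genes were higher and 2 lower (median 0.12), with the latent TGF-beta binder Ltbp3 at 0.93 and Ltbp1 at 1.28. Without E18.5 only 2 were higher, 1 was lower without E16.5 and none without E18.5. Of 12 FGF pathway genes, 7 were higher and the cartilage receptor Fgfr3 was lower (median 0.60; 2 were lower without the adult). The higher count was 5 without E16.5, E18.5 or P0 and 9 without the adult, and within clusters 1 of 12 was higher (Fgf9). The ligand Fgf9 stood at 4.97, 13.0, 9.49 and 59.9 CPM against 0.634, 0.378, 0.881 and 9.40 CPM (log2 fold change 3.37, SD 0.61, n = 4 libraries, edgeR adjusted p = 0.00509; within clusters 2.13), and the ligand Fgf18 and the feedback inhibitor Spry1 at log2 fold changes of 1.37 and 1.19, neither of which passed within clusters, where the ligand Fgf10 was lower. In the hedgehog pathway, which acts at the tendon insertion and in the growth plate, none of 8 tested genes was higher and 3 were lower, among them the ligand Ihh (1.24, 6.15, 1.28 and 0.517 CPM against 24.6, 33.0, 15.0 and 29.9 CPM; log2 fold change -3.79, SD 0.91, n = 4 libraries, edgeR adjusted p = 0.00553) and its receptor and target Ptch1 (-1.10, 0.00703 by edgeR). Without the adult library 1 hedgehog gene was higher. Ihh did not pass within clusters (-1.77).

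Secreted and surface factors known from hematopoietic support were also measured. Of 13 tested, 4 were higher (Igf1, Csf1, Ptn and Mdk) and none lower, with a median of 0.23, and this count was 2 without E16.5 or P0, 1 without E18.5 and 7 without the adult. Within clusters none of 12 was higher and 4 were lower (Cxcl12, Kitl, Csf1 and Jag1), with a median of -0.35, so that Csf1 turned. Ptn, a heparin-binding cytokine, stood at 1837, 1206, 1223 and 354 CPM in the E16.5, E18.5, P0 and adult libraries, against 419, 283, 383 and 84.6 CPM in the other stromal cells (log2 fold change 1.91, SD 0.21, n = 4 libraries, edgeR adjusted p = 0.00119; within clusters 0.41, not passed). It was higher in 4 of 4 libraries, and the adult library was lowest in both groups. Cxcl12, the chemokine that retains hematopoietic stem cells in BM, stood at 72.1, 50.3, 43.7 and 181 CPM against 45.7, 41.4, 56.7 and 1006 CPM. Its level in Scx/Tnmd cells was slightly higher at E16.5 and E18.5, lower at P0 and more than 5-fold lower in the adult (log2 fold change -0.52, SD 1.39, n = 4 libraries, edgeR adjusted p = 0.509), and without the adult library its log2 fold change was 0.11. Igf1 stood at 394, 296, 298 and 588 CPM against 178, 118, 200.5 and 227 CPM (log2 fold change 1.03, SD 0.37, n = 4 libraries, edgeR adjusted p = 0.00703), a call lost without E18.5 (0.0522) and a direction that turned within clusters (-0.32).

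Cartilage genes were lower in Scx/Tnmd cells, with 11 of 11 chondrocyte markers passing and a median of -2.20 (6 of 11 without E18.5). Col2a1, the main cartilage collagen, stood at 2523, 11550.1, 14608 and 3852 CPM against 12441, 35129, 30653 and 26288 CPM (log2 fold change -2.02, SD 0.75, n = 4 libraries, edgeR adjusted p = 0.00858). Cnmd, the cartilage relative of Tnmd, stood at 254, 722, 849.8 and 204 CPM against 1401, 2479, 2008 and 1664 CPM (log2 fold change -2.20, SD 0.78, n = 4 libraries, edgeR adjusted p = 0.00745). Both were lower in 4 of 4 libraries, Cnmd without overlap between the groups, and the call of Col2a1 was lost without E18.5 (edgeR adjusted p = 0.0526). Within clusters none of the 11 passed in either direction, with a median of -0.40, Col2a1 at -0.45 and Cnmd at -0.42. Muscle markers were lower for 8 of 10, endothelial markers for 7 of 8 and Schwann cell markers for 6 of 7 (3 of 7 without E18.5). Of 8 pericyte and smooth muscle markers, 1 was higher (Tagln) and 1 lower (Cspg4), and none was higher without E18.5 or P0. Within clusters, 1 of 7 muscle markers tested was lower (Des), as were 3 of 8 endothelial markers (Tek, Emcn and Esam) and 4 of 8 pericyte and smooth muscle markers (Rgs5, Notch3, Kcnj8 and Abcc9), and none of the 4 Schwann cell markers tested passed. Genes of sheath, paratenon and progenitor cells were higher for 2 of 12 (Pdgfrb and S100a4) against all other stromal cells and lower for 7 of 12 within clusters (Tppp3, Ly6a, Cd34, Has1, Pi16, Dpp4 and Clec3b), with medians of -0.05 and -1.30. Against all other stromal cells 1 such gene was lower without E16.5 or the adult.

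Scx/Tnmd cells were next compared with the 851 cells that held at least 3 Scx UMIs and no Tnmd UMI (Scx-only cells, 243, 139, 336 and 133 per library), to set the chosen cells beside cells that pass on Scx alone. Scx was not matched, since 20.1 to 30.1% of Scx/Tnmd cells had no Scx UMI. Of 12317 genes tested, 804 (6.53%) were higher and 667 (5.42%) lower, 11.9% in all, with a median of -0.01 over all genes. Scx-only cells were deeper (14808, 16359, 17862 and 16899 median UMIs) and 26.7, 46.0, 38.1 and 69.2% of them lay in F clusters. Once both classes were restricted to F clusters, an alternative chosen after seeing the data, 63 genes (0.550%) were higher and 65 (0.568%) lower of 11446, and 57 and 54 of these had been called before. Counts over all clusters were 295 and 205 without E16.5, 377 and 277 without E18.5 and 270 and 208 without P0, and 1125 were lower without the adult.

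Against Scx-only cells, 2 of 16 tendon glycoproteins were higher (Thbs4 and Postn) and 3 lower (Comp, Thbs3 and Tgfbi), with a median of -0.02. Of 10 proteoglycans, 3 were higher (Kera, Aspn and Ogn) and 4 lower (Bgn, Prelp, Omd and Chad), with a median of 0.03. The calls of Postn and Aspn were lost without E16.5, E18.5 or P0. Kera stood at 112, 114, 127 and 671 CPM in Scx/Tnmd cells against 5.98, 11.9, 8.66 and 51.2 CPM in Scx-only cells (log2 fold change 3.70, SD 0.36, n = 4 libraries, edgeR adjusted p = 0.000169), and Thbs4 at 288, 446, 583 and 6047 CPM against 35.6, 117, 70.5 and 1169.7 CPM (log2 fold change 2.52, SD 0.53, n = 4 libraries, edgeR adjusted p = 0.00126). Within F clusters their log2 fold changes were 2.66 and 1.76, and those of Ptx4, Zfp185 and Insc were 4.64, 1.57 and 3.40, all past the threshold. Mkx did not pass at 27.7, 23.1, 24.6 and 64.5 CPM against 22.1, 19.9, 21.7 and 13.9 CPM (log2 fold change 0.62, SD 0.96, n = 4 libraries, edgeR adjusted p = 0.234): its levels were close until P0 and apart in the adult. Col1a1 did not pass either (log2 fold change 0.41, edgeR adjusted p = 0.168), but without the adult library it did (0.62).

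By list, 8 of 11 elastic fibre genes were higher than in Scx-only cells (median 0.84), of which Fbn1 and Mfap5 also passed within F clusters at 0.62 and 0.77. The progenitor gene Pi16 (1.80, 0.00852 by edgeR) and Spry1 (1.41, 0.0032 by edgeR) passed in both settings, with 1.21 and 1.06 within F clusters. Niche factors were higher for 8 of 12 (median 0.93; 5 without E18.5), among them Cxcl12 at 72.1, 50.3, 43.7 and 181 CPM against 22.3, 18.7, 12.4 and 36.2 CPM (log2 fold change 1.78, SD 0.38, n = 4 libraries, edgeR adjusted p = 0.00112) and Igf1 (log2 fold change 1.47, SD 0.37, n = 4 libraries, edgeR adjusted p = 0.00159), and 1, Spp1, was lower (none without E16.5 or E18.5). Neither Cxcl12 (0.90) nor Igf1 (0.60) passed within F clusters, and none of the niche factors was higher there.

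Scx-only cells held more of the markers of cartilage and muscle. Chondrocyte markers were lower in Scx/Tnmd cells for 8 of 11 (median -1.21; 2 without E16.5, 4 without E18.5) and muscle markers for 8 of 10 (median -2.61; 4 without E16.5, 3 without P0). Pax7, the factor of muscle satellite cells, stood at 1.14, 1.29, 1.05 and 0.295 CPM in Scx/Tnmd cells against 10.4, 12.3, 8.81 and 2.31 CPM (log2 fold change -3.16, SD 0.54, n = 4 libraries, edgeR adjusted p = 0.00112), and the joint ligand Gdf5 at 6.62, 8.20, 10.8 and 3.62 CPM against 35.1, 32.2, 32.7 and 10.0 CPM (log2 fold change -1.93, SD 0.43, n = 4 libraries, edgeR adjusted p = 0.00159). Both were higher in Scx-only cells of every library. In the other direction, pericyte and smooth muscle markers were higher in Scx/Tnmd cells for 5 of 8 (median 1.69; 3 without P0), with Rgs5 at 16.3, 57.0, 53.5 and 24.4 CPM against 2.34, 6.76, 11.8 and 1.54 CPM (log2 fold change 2.63, SD 0.55, n = 4 libraries, edgeR adjusted p = 0.00136). Cspg4 of the same list was lower, and 1 of the list was lower with any library left out. Within F clusters none of the muscle or pericyte markers tested passed, 1 chondrocyte marker was higher, and Gdf5 was at -0.74 without passing.

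Levels within Scx/Tnmd cells were then set side by side between stages, by a fold of 4 or more in genes with at least 100 CPM and 50 UMIs in the higher library. From E16.5 to E18.5, 9 of 1432 genes (0.628%) were higher and 1 (0.0698%) lower, and from E18.5 to P0, 1 of 1345 (0.0743%) was higher and 0 (0.00%) lower. Over both intervals, from E16.5 to P0, 26 of 1438 (1.81%) were higher and 3 (0.209%) lower. With the CPM of each cell averaged, these counts were 29 and 0. From P0 to the adult, 94 of 1603 (5.86%) were higher and 46 (2.87%) lower. Most of the folds thus lay between P0 and the adult, where bones and preparation also changed. Of these genes, 67 higher (71.3%) and 25 lower (54.3%) differed 4-fold in the same direction in the other stromal cells too, against none of the 10 between E16.5 and E18.5.

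Among fetal and newborn Scx/Tnmd cells, genes of cartilage and bone matrix were among those past the fold. Matn3, a matrilin of cartilage, stood at 50.7 CPM at E16.5 and 289.7 CPM at E18.5 (5.71-fold, 5.19 to 6.30), Omd at 31.8 and 176 CPM, and Comp at 169.7 and 798 CPM. The other stromal cells were higher at E18.5 too, by 2.69-fold for Matn3, 2.54-fold for Omd and 2.53-fold for Comp. Col10a1, the collagen of hypertrophic cartilage, went the other way from 119 to 3.13 CPM (38.1-fold lower, 26.4 to 57.2), but it did not meet the criteria when each cell's CPM was averaged. Between E18.5 and P0 only the linker histone gene Hist1h1c passed the fold, from 38.8 to 195 CPM (5.02-fold, 4.51 to 5.60). The lubricin gene Prg4 (103 to 335 CPM) and the osteopontin gene Spp1 (76.6 to 226 CPM) followed below it.

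Adult Scx/Tnmd cells had far higher levels of Slurp1, a secreted Ly6-family protein (0.194 CPM at P0 and 274 CPM in the adult), Myoc, the myocilin gene (2.45 and 2102 CPM, 858-fold, 670 to 1117) and Angptl7 (5.02 and 683 CPM, 136-fold, 115 to 163). The osteocalcin genes Bglap2 (0.428 and 256 CPM) and Bglap (0.622 and 212 CPM) had larger folds than Angptl7. Among the largest folds in the other direction, Dlk1, a transmembrane protein of the Notch ligand family, stood at 2468 and 3.47 CPM (711-fold, 535 to 968) and the growth factor Igf2 at 113 and 0.295 CPM (381-fold, 149 to 1399). In the stroma outside the rule Myoc went from 3.23 to 702 CPM and Dlk1 from 3035 to 5.54 CPM. Slurp1 went there from 0.378 to 136 CPM, Angptl7 from 2.73 to 264 CPM and Igf2 from 126 to 0.243 CPM. Bglap2 went from 3.08 to 745 CPM and Bglap from 3.14 to 1324 CPM in those cells. Lists are counted over the genes that met the CPM and UMI limits. At least 4-fold higher in the adult were 4 of 10 proteoglycans (Dcn, Kera, Prelp and Chad) and 4 of 16 glycoproteins (Comp, Thbs4, Cilp and Cilp2). So were 5 of 8 sheath or progenitor genes (Prg4, Ly6a, Anxa8, Clec3b and S100a4) and 3 of 3 osteoblast markers (Ibsp, Bglap and Bglap2). The share over all genes was 5.86%, and 67 of these 94 genes (71.3%) were 4-fold higher in the other stromal cells too. In those cells Thbs4 went from 48.7 to 372 CPM and Kera from 5.65 to 5.99 CPM. At least 4-fold lower were 3 of 11 elastic fibre genes (Eln, Fbn2 and Mfap2), 1 of 16 glycoproteins (Tnn) and 4 of 11 chondrocyte markers (Col9a1, Col9a3, Matn1 and Cnmd). The share over all genes was 2.87%. The median of 10 proliferation genes was -3.36 on the log2 scale.

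Within a stage, Scx/Tnmd cells were spread over several deposited clusters. At E16.5 they were 282 cells of F2 (44.1% of the cluster), 269 of F5 (94.4%) and 102 of F3 (16.8%). At E18.5 they were 376 cells of F2 (54.0%) and 91 of F3i (11.9%), and at P0 433 of F2 (45.9%), 370 of F5 (98.1%) and 361 of F7 (26.7%), with 100, 60 and 49 cells in the chondrocyte clusters C8, C1 and C2ii. In the adult, 390 cells lay in F11 (98.5%), 183 in F10 (20.8%), 149 in F12 (93.1%), 132 in F8 (11.7%) and 58 in Osteo (16.1%). Clusters F5 at E16.5 and P0 and F11 and F12 in the adult therefore consisted almost wholly of Scx/Tnmd cells. The clusters were made by the authors from variable genes of these cells, so levels in them are given as a description.

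In fetal and newborn stroma, the cluster with the most Tnmd also held the most Thbs4 and Kera. At P0, Scx/Tnmd cells of F5 stood at 3646 CPM of Tnmd, 1839 CPM of Thbs4 and 389.7 CPM of Kera, whereas those of F2 stood at 846, 197 and 30.5 CPM and those of C8 at 256, 62.7 and 10.8 CPM. F2 was instead higher for Tnn, a tenascin known from bone and periodontal tissue, at 376 CPM against 57.6 CPM in F5, and at E16.5 at 255 against 9.52 CPM. Cells in F3 at E16.5, F3i at E18.5 and F7 at P0 carried loose connective tissue genes, with Clec3b at 339.8, 547 and 324 CPM and Cd34 at 179.7, 214 and 119.9 CPM, against 4.16 and 8.92 CPM in F5 at E16.5. Those in C8 stood at 43910.3 CPM of Col2a1, more than 10-fold the level in F5 (4133 CPM). The 40 cells in P2 at P0 held 9319 CPM of Acta2 and 945 CPM of Myh11, contractile genes of smooth muscle, with 10.8 CPM of Thbs4, 6.77 CPM of Kera and 2.71 CPM of Mkx.

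Adult Scx/Tnmd cells also differed between clusters, but Tnmd and Kera were highest in different ones. F11 was highest for Tnmd (3427 CPM), Mkx (119 CPM) and Postn (3263 CPM), and F12 was highest for Kera (1802 CPM, against 882 in F11) and Fmod (10908 CPM, against 5481) but held 71.5 CPM of Postn. F10 combined 498 CPM of Tnmd with the highest levels of Comp (11597 CPM) and Chad (8137 CPM), matrix genes shared with cartilage, and of Prg4 (3275 CPM). F8 held the highest Ly6a (2290.3 CPM), Cd34 (644 CPM), Cxcl12 (613 CPM) and Igf1 (1272 CPM). Cells in the Osteo cluster stood at 2867 CPM of the osteocalcin gene Bglap, and the other 4 clusters at 9.25 to 28.1 CPM. Of the adult Cxcl12 values, all 4 outside F8 lay between 30.7 and 58.6 CPM.

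**Figure D4:**
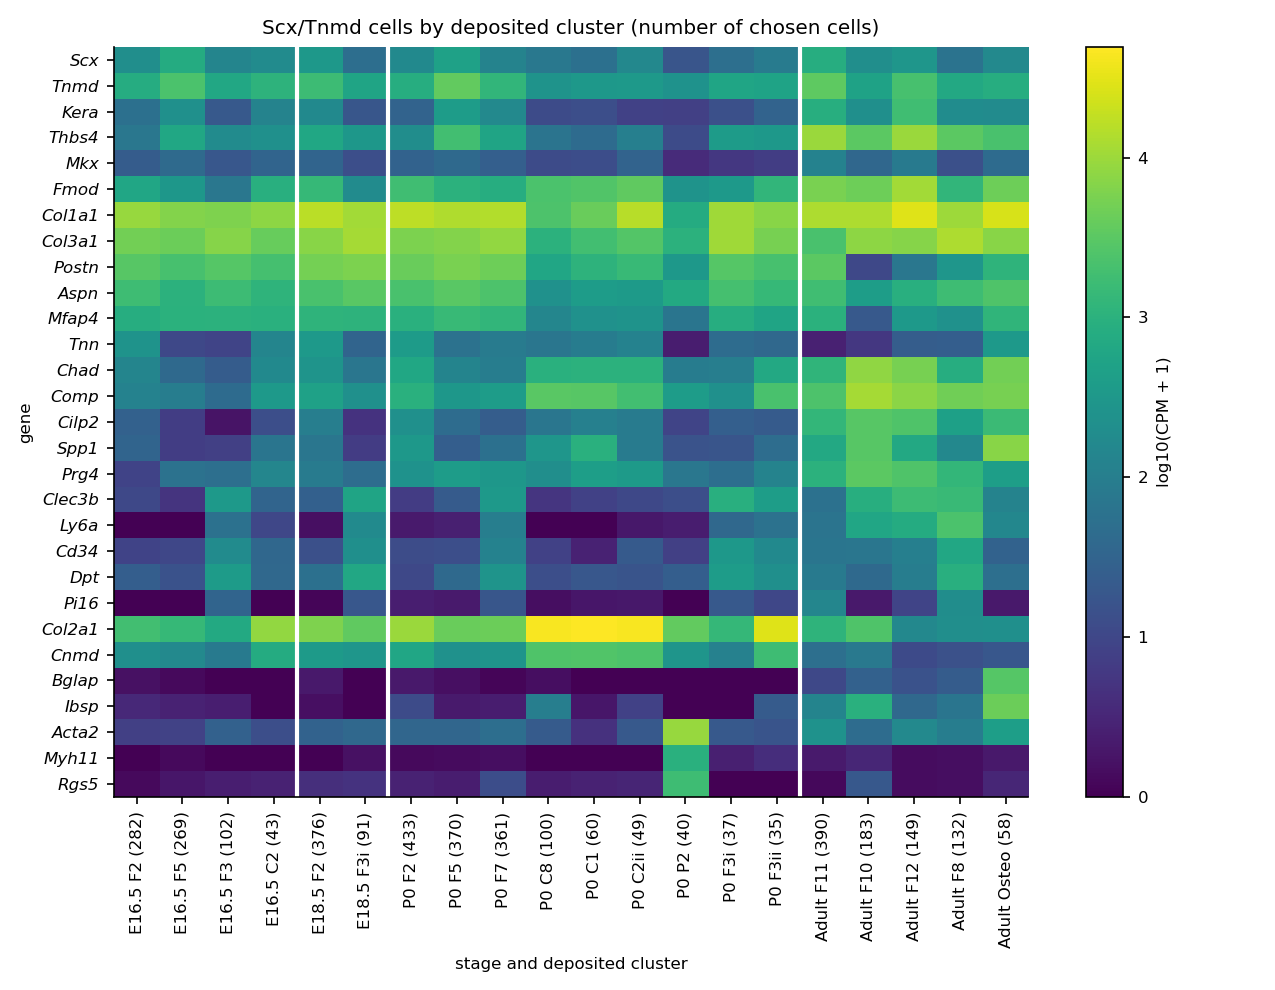
Level of 29 genes (log10 of CPM + 1, colour scale) in Scx/Tnmd cells of the 20 stage and cluster groups that hold at least 30 of them. Thbs4 and Kera are highest in F5 at E16.5 and P0, F2 at E18.5 and F11 and F12 in the adult, Col2a1 in the P0 chondrocyte clusters, Acta2 and Myh11 in P2 at P0, and Bglap in the adult Osteo cluster.

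The levels of these genes also varied with the number of rule UMIs, given here as a description because the bands use the rule genes. Thbs4 in Scx/Tnmd cells with 3, 4 to 9, 10 to 29 and 30 or more UMIs of both genes stood at 41.8, 93.2, 265 and 609 CPM at E16.5, 81.2, 137, 423 and 1441 CPM at P0 and 2326, 2555, 5686 and 9127 CPM in the adult. Cells just outside, with 2 UMIs, held 45.2, 75.3 and 1107 CPM, near those with 3 at E16.5 and P0. At E18.5 they held 46.9 CPM of Thbs4 (38.1 to 57.1), below the 88.7 CPM (72.5 to 107) of cells with 3. Kera over the same bands stood at 5.07, 6.00, 20.3 and 404 CPM at E18.5 and 62.4, 171, 729.6 and 1044 CPM in the adult. Cells with 2 UMIs held more Kera than cells with 3 at E16.5 (12.2 against 1.95 CPM) and E18.5 (14.7 against 5.07 CPM) and less at P0 and in the adult (6.28 against 10.6 CPM and 30.6 against 62.4 CPM). Col1a1 at P0 stood at 4721, 8699.8, 14427 and 16258 CPM, and Col2a1 ran the other way at 26189, 21002, 10582 and 6886 CPM. Fmod had no such order at E16.5 (493 CPM with 3 UMIs and 381 CPM with 30 or more) or P0 (1397 and 1322 CPM). It rose over the bands at E18.5 (1093 and 1361 CPM) and in the adult (1864 and 6800 CPM).

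Surface proteins were read from antibody tags on the same cells, a measure that the rule did not use. CD140a, the PDGF receptor alpha, was higher on Scx/Tnmd cells than on other stromal cells by 0.616, 0.462, 0.304 and 0.0571 in centered log-ratio (CLR) units in the E16.5, E18.5, P0 and adult libraries. The mean difference was 0.360 (SD 0.239, n = 4, exact sign-flip permutation p = 0.125, two-sided). CD73 was higher by 0.183, 0.530, 0.490 and 0.0789 (mean 0.321, SD 0.224, exact permutation p = 0.125). In CLR units both were higher in 4 of 4 libraries and least so in the adult, and 0.125 is the smallest p that 4 libraries allow (0.167 adjusted over the 4 antibodies). Sca-1 differed by 0.0379, 0.0898, 0.0387 and -0.0527 (exact permutation p = 0.5), and the endothelial CD31 by -0.0275, -0.00836, -0.00156 and -0.226 (p = 0.125). For CD73 the transcript did not follow: Nt5e stood at 12.9, 43.1, 51.3 and 89.3 CPM in Scx/Tnmd cells and at 26.0, 60.0, 62.6 and 153 CPM in the other stromal cells, lower in all 4 libraries. Pdgfra, which encodes CD140a, stood at 94.2, 91.7, 100.3 and 81.0 CPM against 50.9, 52.6, 71.7 and 96.7 CPM, higher until P0. With both classes in the same clusters the mean difference of CD140a turned to -0.133 and that of Sca-1 to -0.287, each lower in 4 of 4 libraries, while CD73 stayed at 0.217 (higher in 3 of 4). As log2 shares of all antibody counts, CD140a differed by 0.484, 0.177, -0.0689 and 0.571 and CD73 by -0.0518, 0.259, 0.940 and 0.624. On that scale CD140a was lower at P0 and furthest apart in the adult, and CD73 was lower at E16.5.

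**Figure D5:**
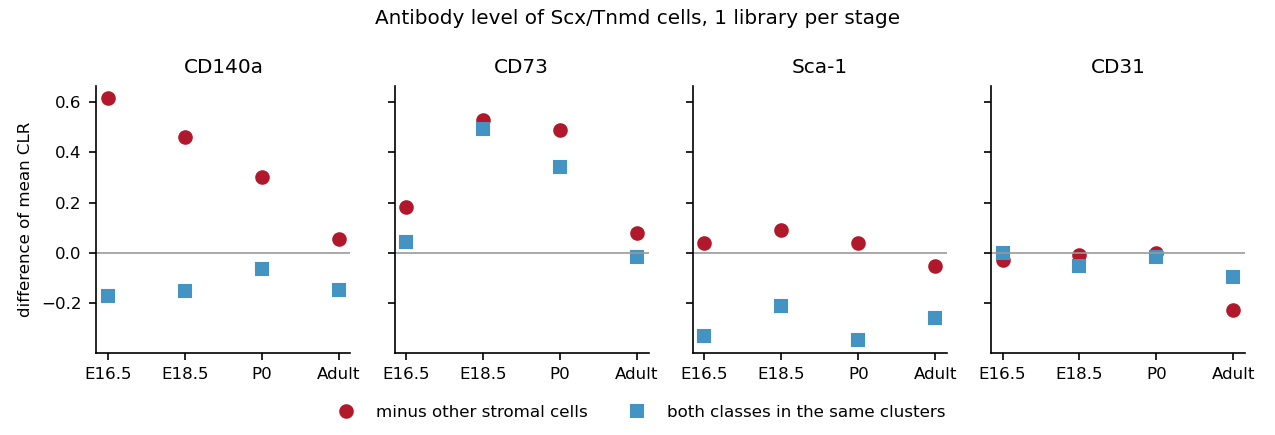
Difference of the mean antibody level (CLR units) of Scx/Tnmd cells from other stromal cells, over all cells (circles) and with both classes in the same clusters (squares), 1 point per library, for CD140a, CD73, Sca-1 and CD31. CD140a lies above 0 against all other stromal cells (mean 0.360) and below 0 within clusters (mean -0.133), and CD73 stays above 0 in 4 and 3 of 4 libraries.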

How the data were processed

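Single-cell 3′ mRNA (v3.1 chemistry) and antibody-tag libraries of the same cells were analysed. The authors deposited raw UMI counts per gene (20275 genes) and per antibody and a table of clusters, depth and mitochondrial share, the last as a fraction; per the submitters' notes they used Cell Ranger 3.1.0 (mm10), Seurat 3.1.5 and R 4.0. They had removed cells with few UMIs, a high mitochondrial share or very many genes or UMIs, the last against doublets, and no doublet caller was run here. Library totals were 91868751 to 194892476 UMIs, and 136 barcodes were shared between stromal libraries. A shared barcode was held by 276 cells, of which 33 were Scx/Tnmd cells. Summed counts were tested with edgeR 4.0.16 in R 4.3.3 (quasi-likelihood, TMM, default filter on low counts, library as a block since both classes come from the same library, Benjamini-Hochberg, threshold 0.05) after a test on simulated data. The p-values measure spread between libraries that differ in stage. DESeq2 1.42.0 was an alternative. Antibody counts were normalized by CLR per library. Other steps used Python 3.11.15, numpy 2.4.6, pandas 2.3.3, SciPy 1.17.1 and matplotlib 3.10.9. Listed genes could be named, as could the 15 largest fold changes each way per comparison among genes past the threshold that moved alike in every library, with 50 UMIs or more, and the 5 largest folds each way per stage pair. Members and lists were chosen with earlier results of these data known.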

Additional observations from a re-analysis of the deposited data

Results flagged for a closer look

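Of 258 listed genes, 14 were at least 1.5-fold higher in Scx/Tnmd cells than in the other stromal cells of 1 library and at least 1.5-fold lower in another. The same count was not made over all genes, so whether 14 is many or few is not known. These differences between stages were not tested, since each stage is 1 library, and they are given as the ratio of Scx/Tnmd to other stromal cells. In 12 of the 14 genes the adult library was the lowest.

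Mki67, Birc5 and Cenpf, genes of dividing cells, had ratios above 1 at E16.5 and far below it in the adult. The ratio of Mki67 went from 1.57 to 0.187, that of Birc5 from 1.66 to 0.0991 and that of Cenpf from 1.55 to 0.14. Also flagged were Cxcl12, from 1.58 to 0.18, the adhesion molecule Vcam1, from 2.26 to 0.265, and the leptin receptor gene Lepr, from 2.73 to 0.535, each between E16.5 and the adult. The niche factors Igf1 and Ptn were not flagged and were higher in Scx/Tnmd cells of every library. The other adult stromal cells hold the cluster coded CARs, in which 3 of 359 cells met the rule. The part of that cluster in these ratios was not tested.

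Among matrix and bone genes, the ratio at E16.5 and in the adult was 1.56 and 0.297 for the lubricin gene Prg4, 1.58 and 0.213 for the alkaline phosphatase gene Alpl, and 1.63 and 0.629 for the secreted protein gene 1500015O10Rik. The BMP antagonist Grem1 was highest at P0 with 2.85 and lowest in the adult with 0.263. Of the pericyte genes, 2 met this criterion, with 2.17 at E18.5 and 0.206 in the adult for Rgs5 and 1.91 and 0.466 for Notch3. The summed list of 8 was not lowest in the adult, at 888 against 781 CPM there and 285 against 359 CPM at E16.5. The opposite order was seen for Col15a1, a basement membrane collagen, at 0.347 at E16.5 and 1.52 in the adult, and for the FGF feedback inhibitor Spry2, at 0.648 at E18.5 and 1.59 in the adult.

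The adult hematopoietic library, which entered no comparison, held 6 Tnmd UMIs in 4 of 5985 cells, and none of these cells met the rule.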

How the results depend on the processing

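Against other stromal cells, the counts of higher and lower genes were 2092 and 2256 with DESeq2 and 1680 and 1865 with RLE size factors. They were 1309 and 2300 without a filter and 1582 and 2062 with 5 or more UMIs. Leaving out other cells below the 10th percentile of Scx/Tnmd cell depth gave 1661 and 2119. This floor did not match depth, since the remaining other cells had medians of 13688.5, 17371, 16459 and 13727.5 UMIs. Without Scx/Tnmd cells holding 3 or more UMIs of endothelial, hematopoietic, erythroid or Schwann cell markers, they were 1733 and 2250. With Scx/Tnmd cells of F clusters alone, against all other stromal cells, they were 1745 and 2227 (added after seeing the data). They were 381 and 542 with both classes in the same clusters (also added after seeing the data). When all Scx/Tnmd cells were set against the other cells of those clusters, they were 315 and 496. Leaving out each library gave 416 to 2277 higher and 376 to 2235 lower genes. Against Scx-only cells they were 677 and 648 with DESeq2, 783 and 691 with RLE size factors, 1160 and 785 without a filter and 63 and 65 within F clusters, and 270 to 1070 higher and 205 to 1125 lower with each library left out.

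The pairing of both classes by library is part of the design. Without this block, 64 genes were higher and 38 lower against other stromal cells (1930 at an unadjusted p under 0.05), and 7 and 0 against Scx-only cells (977).

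When all Scx/Tnmd cells, those in chondrocyte and other clusters included, were set against other cells of the clusters with at least 10% of them, 14 of 57 genes with recorded alternatives turned: Egr1 to 0.30, Sox9 to 0.28, Col3a1 to -0.21, Dcn to -0.53, Comp to 0.56, Plod2 to 0.36, Tgfbr2 to -0.10, Fgfr3 to 0.33, Id1 to 0.14, Bmp4 to -0.28, Igf1 to -0.50, Col2a1 to 0.72, Cnmd to 0.79 and S100a4 to -0.085. With both classes in those clusters 7 of the 57 turned, with Egr1 at 0.19, Col3a1 at -0.049, Dcn at -0.47, Plod2 at 0.066, Tgfbr2 at -0.0031, Bmp4 at -0.17 and Igf1 at -0.32, and 2 passed that had not, with Fmod at 1.38 and Cxcl12 at -1.25. In either setting 23 of the 57 kept their direction but no longer passed. The call stayed the same for 18 genes in the former setting and for 25 in the latter. With each library left out, Fmod ranged from -0.11 (without the adult) to 0.54 and Cxcl12 from -0.90 to 0.11 (without the adult). The cause was not tested.

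The share of cells by the rule was 9.35, 8.82, 12.5 and 15.7% among cells with 1000 or more UMIs, 10.8, 10.5, 14.6 and 17.3% at 2 or more UMIs, 7.71, 6.93, 8.85 and 13.2% at 5 or more, 7.44, 6.02, 7.87 and 11.8% with both genes required, and 4.55, 3.69, 5.39 and 8.65% after thinning to 2000 UMIs, by stage. Thinning can only take UMIs of the rule genes away from a cell, so the lower shares after it are no test. How far these shares depend on depth was not tested. With the CPM of each cell averaged, 0 genes were 4-fold lower at E18.5 or P0 than at E16.5. Antibody differences without each library were 0.275 to 0.461 for CD140a, 0.251 to 0.401 for CD73, 0.00796 to 0.0555 for Sca-1 and -0.0873 to -0.0125 for CD31; against other cells of the same clusters they were -0.168, 0.203, -0.279 and -0.0289, with both classes there -0.133, 0.217, -0.287 and -0.0411, and as log2 shares of all antibody counts 0.291, 0.443, -0.255 and -1.87.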

Other observations

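Enzymes that process collagen were split in Scx/Tnmd cells against other stromal cells: 6 of 18 were higher (Lox, Loxl1, Loxl2, P4ha3, Adamts2 and Pcolce) and 4 lower (Plod2, Plod3, P4ha2 and Pcolce2), with a median log2 fold change of -0.14. Lox, which starts collagen cross-linking, stood at 247, 412, 347 and 268 CPM in the E16.5, E18.5, P0 and adult libraries, against 52.1, 65.7, 80.1 and 132 CPM in the other stromal cells (log2 fold change 1.94, SD 0.69, n = 4 libraries, edgeR adjusted p = 0.007). It was higher in 4 of 4 libraries, and within clusters it did not pass (0.61). P4ha3, a subunit of prolyl hydroxylase, had a log2 fold change of 1.24 (edgeR adjusted p = 0.00258), and Plod2, which hydroxylates lysines, one of -1.04 (0.00328). Without E18.5 only 1 of the list was lower, and 8 were without the adult. Within clusters (both classes restricted to clusters with at least 10% Scx/Tnmd cells) 6 were higher (Plod1, P4ha1, Serpinh1, P3h2, Crtap and Pcolce) and none lower, with a median of 0.23. Among 12 genes of matrix remodelling, 4 were higher (Mmp14, Timp2, Timp3 and Ctsk) and Mmp13 was lower, 7 were higher and 3 lower without the adult, and none was lower without E16.5 or E18.5. Ctsk, a collagen-degrading cathepsin, stood at 190.0, 239.6, 306 and 448 CPM against 39.9, 41.7, 64.8 and 203 CPM (log2 fold change 1.97, SD 0.60, n = 4 libraries, edgeR adjusted p = 0.00498), higher in every library and within clusters (0.86). Of 11 remodelling genes tested within clusters, 2 were higher (Timp1 and Ctsk) and 3 lower (Mmp13, Adamts4 and Adamts5).

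In the BMP and GDF pathway, 2 of 17 tested genes were higher (Bmp4 and Bmp5) and 6 lower (Gdf10, Bmp2, Nog, Chrdl1, Chrdl2 and the target Id1), with a median of -0.53. Without E16.5 or P0 1 was higher, none without E18.5 and 4 without the adult. Id1 stood at 167, 155, 189 and 162 CPM against 385, 301, 309 and 291 CPM (log2 fold change -1.01, SD 0.21, n = 4 libraries, edgeR adjusted p = 0.00348), without overlap between the groups, and at -0.07 within clusters, where it did not pass. Within clusters 4 of the 17 were higher (Bmp5, Bmpr1b, Id2 and Grem1) and Gdf10 was lower, and the median was 0.061. Of 11 mechanical response genes, 3 were higher (the channels Piezo1 and Piezo2 and the Hippo factor Yap1) and 5 lower (Cyr61, Ankrd1, Fos, Jun and Myc), with a median of -0.59. Without E16.5 1 of these was higher and 1 lower, without E18.5 none passed, and without P0 1 was higher. Within clusters 1 of 10 tested was higher (Piezo1), none was lower and the median was 0.27. None of 10 proliferation genes passed in either direction (median -0.31), and 2 were higher without the adult.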
